A study of Mus musculus with 6 samples.

Results

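The desmosome genes measured here were 10 of the 24067 genes in the count table of the series: the desmogleins Dsg1a, Dsg1b, Dsg2 and Dsg3, the desmocollins Dsc1, Dsc2 and Dsc3, and the plaque proteins plakoglobin (Jup), plakophilin 1 (Pkp1) and desmoplakin (Dsp). They were chosen by symbol as desmosomal cadherins and plaque proteins. All 10 were found and all 10 passed the filter on low counts, beside 15903 genes tested in all. The libraries came from tongues with tumour of C57BL/6 mice of about 34 weeks, 3 labelled wild type and 3 labelled knock-out for HuR, the RNA-binding protein encoded by Elavl1. Both groups had received the oral carcinogen 4-nitroquinoline 1-oxide for 16 weeks, followed by 12 weeks without it. How the knockout was made, and in which cells, is not given in the sources used here. The labels do not say whether each library came from its own mouse, so each p-value reflects only how far these samples spread, which may in part be technical.

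Desmosomes are spot-like junctions that hold neighbouring epithelial cells together. Desmogleins and desmocollins cross the membrane and bind their partners on the next cell, plakoglobin and plakophilins bind the cadherin tails, and desmoplakin ties the plaque to keratin filaments. In the epidermis the cadherin isoforms are layered. Dsg1 and Dsc1 belong to the upper, suprabasal layers, whereas Dsg3 and Dsc3 are strong in the basal and lower layers. Dsg2 and Dsc2 also occur in simple epithelia. Layers of the tongue were not measured here, and their pattern may differ. Suprabasal (Dsg1a, Dsg1b, Dsc1) and basal or lower-layer (Dsg2, Dsg3, Dsc2, Dsc3) are therefore only names of gene groups below. HuR binds AU-rich stretches of messenger RNA, and the comparison asked which of these transcripts differed between tongues labelled with and without it.

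Total counts ran from 29543352 to 51520707 per library. Elavl1 itself read 65.0, 59.3 and 78.4 CPM in the KO libraries against 61.7, 55.8 and 48.0 CPM in the WT libraries, where CPM are counts scaled to a common library size by TMM, edgeR's trimmed mean method, and values are given for replicates 1, 2 and 3 in turn throughout. It did not fall under the KO label (log2 fold change 0.29 ± 0.15 SE, edgeR adjusted p = 0.180), so KO and WT stand for what the labels say. By Xist and the Y-linked gene Ddx3y, KO replicates 2 and 3 were female and the other 4 libraries male, so the KO libraries came from more than 1 mouse. The libraries also differed in levels of tissue marker RNA. A set of 16 fast muscle genes summed to 42194 to 60029 CPM under the KO label and 74505 to 137944 CPM under the WT label. A reference of 8 epithelial genes, most of them basal keratinocyte markers, summed to 11837 to 13525 and to 4786 to 10627 CPM. They were Cdh1, Epcam, Krt5, Krt14, Trp63, Itgb4, Itga6 and Col17a1. Markers of heart muscle, another tissue rich in desmoplakin, summed to at most 13.1 CPM in any library, and those of lymphatic endothelium to at most 67.4 CPM. In such bulk libraries fewer epithelial cells and less RNA per epithelial cell cannot be told apart.

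All 10 desmosome genes stood higher in every library labelled KO than in any library labelled WT with TMM scaling, although Dsg2 changed sign when scaled to epithelial reference genes (-0.05 on the log2 scale). The fitted fold changes ran from 1.59 (Dsg2) to 4.64 (Dsc1). Such a lack of overlap upwards was seen in 22.0% of all genes tested. The desmocollins Dsc1 and Dsc2 and the desmoglein Dsg1b rose at an adjusted p under 0.05 (edgeR quasi-likelihood test, Benjamini-Hochberg over all genes), so 3 of the 10 passed upwards and 0 downwards, against 4.81% of all genes upwards and 7.43% downwards. The other 7 had edgeR adjusted p from 0.0509 (Jup) to 0.106 (Dsc3), and all 10 had an unadjusted p under 0.05, as had 18.2% of all genes in that direction. The median log2 fold change of the 10 genes was 1.22, beside 0.02 over all genes tested, of which 51.3% lay above 0. The calls moved with the libraries. Without KO replicate 1, 2 or 3, or without WT replicate 2, edgeR called 0 members, where it called 0.0251, 0.00, 0.306 and 0.00% of all genes upwards. In those 4 fits 9, 8, 10 and 8 members had an unadjusted p under 0.05, against 12.0, 12.3, 15.6 and 10.2% of all genes, and no other tool was run. Without WT replicate 3 only Dsc2 was called (1.81% of all genes), and without WT replicate 1 the 7 members other than Dsg1a, Dsg1b and Dsc1 (17.9%). With no filter on low counts edgeR called Dsc2, Jup and Dsg3 (4.18%), and with plain library totals Dsc2 alone (2.55%). DESeq2 called all 10 (12.2%), limma-voom Dsg1b, Dsg3, Dsc1, Dsc2 and Jup (6.14%).

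**Figure D1:**
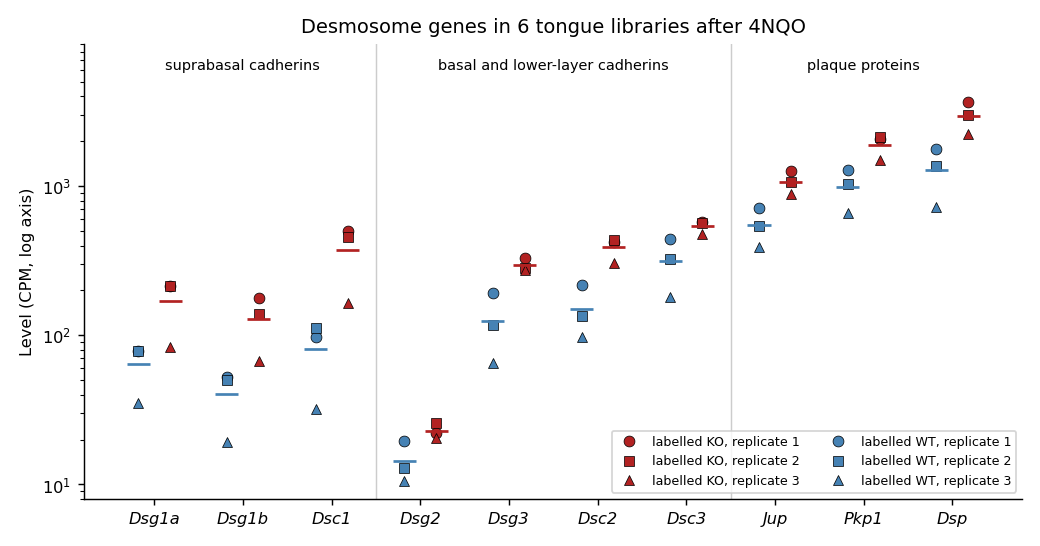
Level of each desmosome gene (CPM, log axis) in each of the 6 libraries; points are libraries, with the replicate given by the symbol, and bars are group means of 3. With this scaling all libraries labelled KO sit above all those labelled WT for each gene (Dsg2 changed sign with epithelial scaling, at -0.05), with the narrowest gap at Dsg2 (1.04-fold) and the widest at Dsc1 (1.46-fold).

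Of the suprabasal cadherins, Dsc1 and Dsg1b rose and Dsg1a did not pass the test. Dsc1, the desmocollin of the upper epidermal layers, read 502, 456 and 164 CPM in the KO libraries against 96.8, 113 and 32.0 CPM in the WT libraries. The groups did not overlap, but KO replicate 3 lay closer to the WT libraries than to the other KO libraries. On the log2 scale Dsc1 differed by 2.21 ± 0.54 (95% interval 0.97 to 3.46, edgeR adjusted p = 0.0425). Dsg1b, a copy of the desmoglein that pemphigus foliaceus antibodies target in the skin, read 179, 139 and 67.8 CPM in the KO libraries against 52.9, 50.04 and 19.2 CPM in the WT libraries. That is a log2 fold change of 1.66 ± 0.44 (95% interval 0.63 to 2.69, edgeR adjusted p = 0.0496). Dsg1a read 214, 214 and 83.7 CPM in the KO libraries against 79.0, 79.0 and 35.4 CPM in the WT libraries (1.40 ± 0.42, edgeR adjusted p = 0.0590). Here KO replicate 3 was only 1.06-fold above the highest WT library. Dsg1a and Dsg1b are close copies: 45.5% of all 50-base windows of the Dsg1b transcript also occur in that of Dsg1a, and 31.6% the other way. How reads in such windows were counted is not stated. The split of reads between them is therefore uncertain, as are their sum and their levels beside other genes. Their sum averaged 299 ± 129 CPM with the KO label against 105 ± 43.8 CPM with the WT label (SD, n = 3). The third copy, Dsg1c, had 1 to 6 counts in each library and was not tested.

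Among the basal and lower-layer cadherins Dsc2 passed the test and Dsg3, Dsc3 and Dsg2 did not. Dsc2 read 421, 439 and 306 CPM in the KO libraries against 217, 136 and 97.0 CPM in the WT libraries. Its lowest KO library was 1.41-fold above its highest WT library, for a log2 difference of 1.37 ± 0.30 (95% interval 0.68 to 2.06, edgeR adjusted p = 0.0366, the smallest of the 10). Dsg3, the desmoglein that pemphigus vulgaris antibodies target in the mouth, read 331, 284 and 272 CPM in the KO libraries against 191, 117 and 65.4 CPM in the WT libraries. The KO libraries were close together and WT replicate 3 held only 0.342 times the level of WT replicate 1, with a log2 fold change of 1.25 ± 0.34 (95% interval 0.46 to 2.04, edgeR adjusted p = 0.0513). Dsc3 read 573, 568 and 478 CPM in the KO libraries against 443, 326 and 180.0 CPM in the WT libraries (0.77 ± 0.30, edgeR adjusted p = 0.106). KO replicate 3 and WT replicate 1 differed by only 1.08-fold in Dsc3. Dsg2, the desmoglein of simple epithelia and heart, was the scarcest, with 22.3, 25.8 and 20.5 CPM in the KO libraries against 19.7, 12.9 and 10.6 CPM in the WT libraries (0.67 ± 0.23, edgeR adjusted p = 0.0805). The 7 cadherin genes lie in 1 stretch of chromosome 18 (GRCm38.p6), from Dsc3 starting at 19960930 to Dsg2 ending at 20604526.

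The plaque proteins gave most of the desmosome reads, and none of the 3 passed in the main edgeR fit (TMM, filter on low counts, group as its only term, all 6 libraries). All 3 had an unadjusted edgeR p under 0.05, against 18.2% of all genes upwards. DESeq2 called 3 of 3 at an adjusted p under 0.05, against 12.2% of all genes upwards. Desmoplakin, Dsp, which anchors keratins, read 3649, 2986 and 2255 CPM in the KO libraries against 1790, 1358 and 730 CPM in the WT libraries. The lowest KO library was 1.26-fold above the highest WT library, for a log2 difference of 1.20 ± 0.36 (95% interval 0.37 to 2.03, edgeR adjusted p = 0.0605). Plakoglobin, Jup, which also serves adherens junctions, read 1260, 1076 and 884 CPM in the KO libraries against 719, 538 and 391.8 CPM in the WT libraries (0.97 ± 0.26, 95% interval 0.36 to 1.57, edgeR adjusted p = 0.0509). Pkp1, the plakophilin that stabilises desmosomes in stratified epithelia, read 2073, 2127 and 1508 CPM in the KO libraries against 1284, 1036 and 659 CPM in the WT libraries (0.94 ± 0.29, 95% interval 0.27 to 1.61, edgeR adjusted p = 0.0648). Both again had no overlap between the groups, as had 22.0% of all genes upwards.

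In RefSeq (GRCm38.p6), Dsp (identifier 109620) lies on chromosome 13 from 38151294 to 38198577, Jup (16480) on chromosome 11 from 100368856 to 100397839, and Pkp1 (18772) on chromosome 1 from 135871394 to 135919207. Of the 10 genes 2 matched the promoter table used here. Their upstream bases are shown to give the sequence context of both plaque genes, with each GGGCGG or its reverse complement CCGCCC, the core of Sp and KLF factor motifs, in capitals.
Dsp, 250 bases at chr13:38151044-38151293, plus strand: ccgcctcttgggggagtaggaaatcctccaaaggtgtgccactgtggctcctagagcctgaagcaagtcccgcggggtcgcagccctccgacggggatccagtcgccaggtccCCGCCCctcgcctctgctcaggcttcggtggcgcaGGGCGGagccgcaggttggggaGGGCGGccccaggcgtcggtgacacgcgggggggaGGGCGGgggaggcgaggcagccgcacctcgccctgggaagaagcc
Jup, 201 bases at chr11:100397840-100398040, minus strand: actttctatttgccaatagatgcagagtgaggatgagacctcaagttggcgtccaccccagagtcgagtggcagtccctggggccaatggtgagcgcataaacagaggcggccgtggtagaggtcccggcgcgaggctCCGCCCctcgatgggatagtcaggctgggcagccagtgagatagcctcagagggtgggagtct
The Dsp window held 4 such matches and the Jup window 1. Among 32851 promoters in the table, 32.7% hold at least 1 in 250 bases and 24.8% in 201 bases. GC content was 72.4% and 60.2%, beside a median of 52.4% for 250 bases over the table. Neither window held the AP-1 letters TGANTCA (6.75% of promoters at 250 bases), the grainyhead letters AACNGGTT (1.79%) or the E-box letters CANNTG (66.2%), each searched on both strands. At 201 bases, the length of the Jup window, these shares were 5.59, 1.42 and 59.2%.

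Because HuR binds AU-rich stretches, the pentamer ATTTA was counted in the 3′ untranslated region of the longest coding transcript of each gene (GENCODE M21). It occurred in 9 of the 10 genes, from 1 copy in Dsg1b, Dsg2 and Pkp1 to 7 in Dsc2, and not in Jup; over all tested genes with such a region 68.0% held it. In the last 500 bases of that region 6 of 10 desmosome genes held it, against 57.7% of 10757 genes. The longer form TATTTAT was present in Dsg1a only, against 29.0% of genes. The sites of the plaque genes are printed with the pentamer in capitals, at bases 142 and 237 of the region in Dsp and base 2070 in Pkp1.
Dsp, first site: tagtaaaggctcATTTAgctctgtagcttt
Dsp, second site: attgaatttggaATTTAtttcttccatgtt
Pkp1: aaacaagttacaATTTAggaccaaatgaga
A match of letters is not a measured binding site.

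Per transcript length, the plaque proteins stood above the cadherins in both groups. With the KO label the order was Pkp1 at 407 ± 73.5 RPKM, which is CPM per kilobase of the longest coding transcript (SD, n = 3), then Jup at 335 ± 58.6, Dsp at 309 ± 72.7, Dsc3 at 101 ± 9.9996, Dsc1 at 91.6 ± 44.8, Dsc2 at 84.0 ± 15.6, Dsg3 at 47.6 ± 4.997, Dsg1b at 32.5 ± 14.2, Dsg1a at 29.96 ± 13.2 and Dsg2 at 3.96 ± 0.470 RPKM. Neighbours within the plaque proteins, within the desmocollins and between Dsg1b and Dsg1a lay within their spread. With the WT label the order was the same at the top, from Pkp1 at 213 ± 67.4 to Dsc3 at 59.3 ± 24.7 RPKM, but Dsc1 at 19.7 ± 10.5 RPKM lay below Dsc2 at 32.4 ± 13.3 and level with Dsg3 at 20.1 ± 10.2 RPKM. Dsg2 was again last at 2.496 ± 0.817 RPKM.

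The libraries kept a common order across the genes. KO replicate 3 was the lowest KO library and WT replicate 3 the lowest WT library for all 10 genes, and WT replicate 1 was the highest WT library for 9 of them. The suprabasal cadherins varied most among the libraries labelled KO, with a coefficient of variation of 43.9 to 48.9%, against 9.88 to 18.6% for the basal and lower-layer cadherins and 17.5 to 23.5% for the plaque proteins. In the libraries labelled WT the ranges were 39.1 to 53.1%, 32.7 to 50.8% and 29.8 to 41.2%. With 3 libraries a group these spreads are themselves imprecise and their difference was not tested.

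Basal and suprabasal isoforms were then set against each other within each library, where library scaling cancels. Per length, the suprabasal Dsc1 made up 38.2, 35.7 and 20.5% of desmocollin reads in the KO libraries against 15.4, 23.4 and 12.5% in the WT libraries. Dsc3 made up 33.5, 34.0 and 45.8% in the KO libraries and 54.0, 51.8 and 54.0% in the WT libraries, with no overlap, and Dsc2 took 30.8 ± 2.73 and 29.6 ± 4.41% (SD, n = 3). The Dsc1 shares overlapped, since WT replicate 2 lay above KO replicate 3. In the desmogleins the groups overlapped: Dsg1a and Dsg1b together made up 59.2, 59.2 and 40.2% in the KO libraries and 44.3, 55.7 and 47.2% in the WT libraries. The size of that share is uncertain, since the counting of reads common to both copies is not stated. Dsg2 took 3.63 ± 0.863% of the desmoglein pool with the KO label against 6.03 ± 1.62% with the WT label (SD, n = 3), with no overlap.

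**Figure D2:**
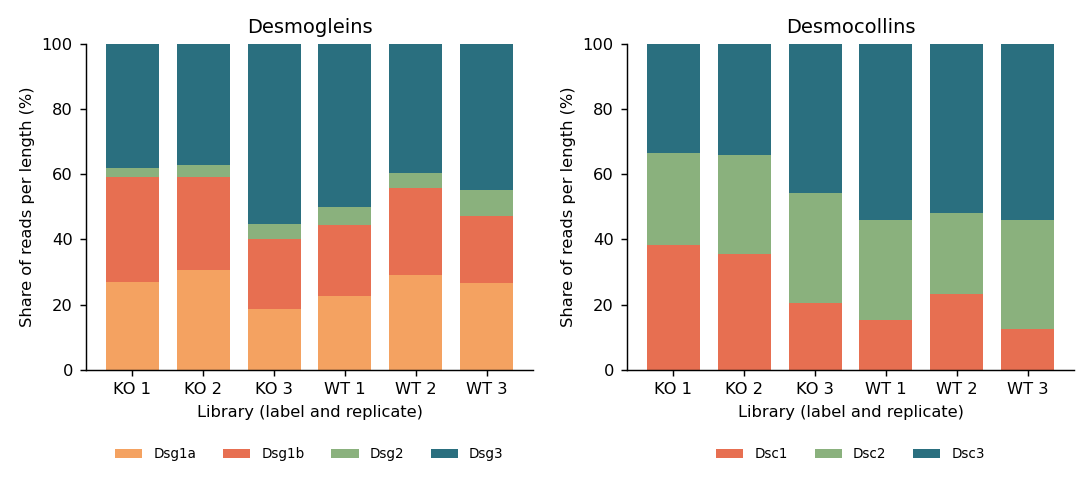
Share of each isoform in the desmoglein reads (left) and desmocollin reads (right), per transcript length, in percent, for each of the 6 libraries. Dsc1 takes 31.5 ± 9.57% of the desmocollin pool with the KO label against 17.1 ± 5.62% with the WT label (SD, n = 3), while the summed Dsg1a and Dsg1b shares overlap.

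As log2 ratios of counts, 6 pairs were tested with 2-sided exact permutation tests over the 6 libraries, whose smallest possible p is 0.1, so that no pair could pass 0.05. The Dsc1 to Dsc3 ratio differed by 1.39 between the groups, from -2.07 ± 0.49 in labelled WT to -0.68 ± 0.75 in labelled KO (SD, n = 3, exact p = 0.2, adjusted over the 6 pairs 0.3). KO replicate 3, at -1.54, was below WT replicate 2, at -1.53, in this ratio, and without KO replicate 3 the difference was 1.82 (exact p = 0.2, the smallest that 2 against 3 libraries allow). The Dsc1 to Dsc2 ratio differed by 0.81 (exact p = 0.2, adjusted 0.3), with 0.52 without WT replicate 3 and 1.19 without WT replicate 2 as the lowest and highest values on leaving out 1 library. The Dsg1a to Dsg3 ratio did not differ beyond its spread (-0.91 ± 0.69 in labelled KO and -0.91 ± 0.35 in labelled WT, SD, n = 3, exact p = 1), and the Dsg1b to Dsg3 ratio differed by 0.31 (exact p = 0.5, adjusted 0.6). Both desmoglein differences moved with single libraries: leaving out 1 library gave -0.26 (without KO replicate 2) to 0.39 (without KO replicate 3) for Dsg1a to Dsg3 and 0.0997 (without KO replicate 1) to 0.66 (without KO replicate 3) for Dsg1b to Dsg3. For the latter, omitting KO replicate 2 gave 0.17, WT replicate 1 gave 0.19 and WT replicate 2 gave 0.51. The pairs without overlap were Dsg3 to Dsg2, higher by 0.67 in labelled KO, and Pkp1 to Dsp, lower at -0.63 ± 0.17 against -0.34 ± 0.17 (SD, n = 3), each with exact p = 0.1, adjusted 0.3.

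**Figure D3:**
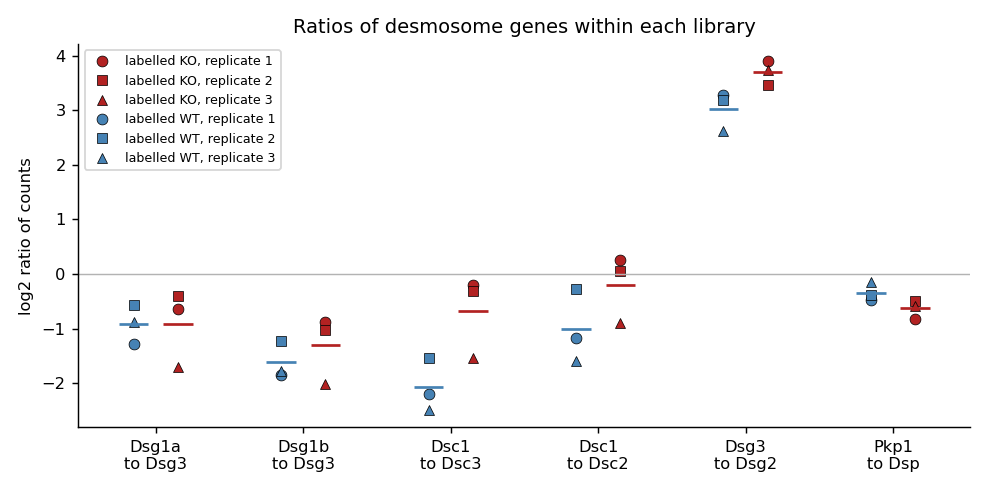
log2 ratio of the counts of 2 desmosome genes within each library, for the 6 pairs tested; points are libraries and bars are group means of 3. Red and blue points are apart for Dsg3 to Dsg2 and for Pkp1 to Dsp and overlap for the other 4 pairs.

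The desmosome level ran against the muscle level from library to library, as a description over 6 libraries. The 10 genes held 0.979, 0.905 and 0.621% of all counts in the KO libraries against 0.508, 0.352 and 0.192% in the WT libraries. In the same order the 16 fast muscle genes summed to 42194, 44948, 60029, 74505, 107852 and 137944 CPM, the exact reverse. The epithelial reference summed to 11837, 13417, 13525, 10627, 6162 and 4786 CPM, so KO replicate 3 had the lowest desmosome share of its group beside the highest epithelial reference. With the mean of the muscle genes as a covariate edgeR called 0 of the 10 genes and 0.00% of all genes upwards (unadjusted 0 of 10, against 1.47%, and no other tool was run with it), and their median log2 fold change was 0.18. With the mean of 10 basal keratinocyte genes as a covariate edgeR called 0 of the 10 desmosome genes and 0.00% of all genes upwards (unadjusted 0, against 2.52%). The median of the desmosome genes was then 0.45. The basal list holds all of the epithelial reference except Cdh1 and Epcam. With sex as a covariate that median was 1.45, but that fit compares only KO replicate 1 with the WT libraries. Both the muscle and the basal mean also separated the labels without overlap. On the log2 scale the muscle mean ran from 9.89 to 10.58 in labelled KO and from 10.67 to 11.4 in labelled WT. The basal mean ran from 9.15 to 9.40 and from 8.02 to 9.09. Those fits can therefore hardly tell the label from these marker levels. The part of the tissue mix in each desmosome difference was not tested.

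**Figure D4:**
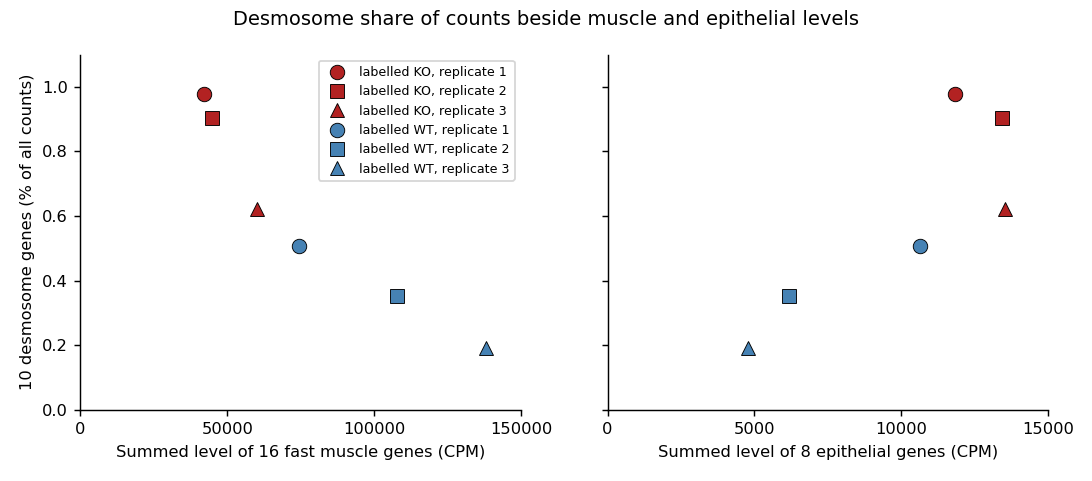
Share of all counts held by the 10 desmosome genes (percent) against the summed level of 16 fast muscle genes (left) and of 8 epithelial reference genes (right), both in CPM; each point is 1 of the 6 libraries. From 0.979% in KO replicate 1 to 0.192% in WT replicate 3 the share falls as muscle rises, while the 3 libraries labelled KO have similar epithelial reference levels of 11837 to 13525 CPM.

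Scaled to the epithelial reference instead of to the library, desmosome differences were smaller and not even. Dsc1 (1.52 ± 0.41, edgeR adjusted p = 0.00387) and Dsg1b (0.97 ± 0.35, edgeR adjusted p = 0.0228) passed the threshold, which 1.03% of all genes passed upwards in that fit. Dsc2 stood at 0.68 ± 0.37, Dsg1a at 0.69 ± 0.36, Dsg3 at 0.59 ± 0.36 and Dsp at 0.50 ± 0.50, none of them past it. Jup (0.24 ± 0.44), Pkp1 (0.22 ± 0.48), Dsc3 (0.08 ± 0.40) and Dsg2 (-0.05 ± 0.33) lay within 1 standard error of 0. This scaling set the median of all genes to -0.80 and called 164 genes higher and 7445 lower (46.8% of all genes), against 765 and 1181 with TMM. Relative to that median the 10 genes stood between 0.75 (Dsg2) and 2.32 (Dsc1), and relative to the TMM median between 0.65 (Dsg2) and 2.20 (Dsc1). Set against the reference library by library, the groups did not overlap in 2 of the 10 genes, Dsg3 and Dsc2, both higher with the KO label, as were 2.11% of all genes by the same measure. Dsc1 and Dsg1b, though past the threshold, overlapped. KO replicate 3 lay at -1.92 and -3.19 for them, below WT replicate 2 at -1.55 and -2.72. Both had a smaller edgeR adjusted p here than with TMM although their fold changes were smaller, so adjusted p-values are not comparable between the fits.

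**Figure D5:**
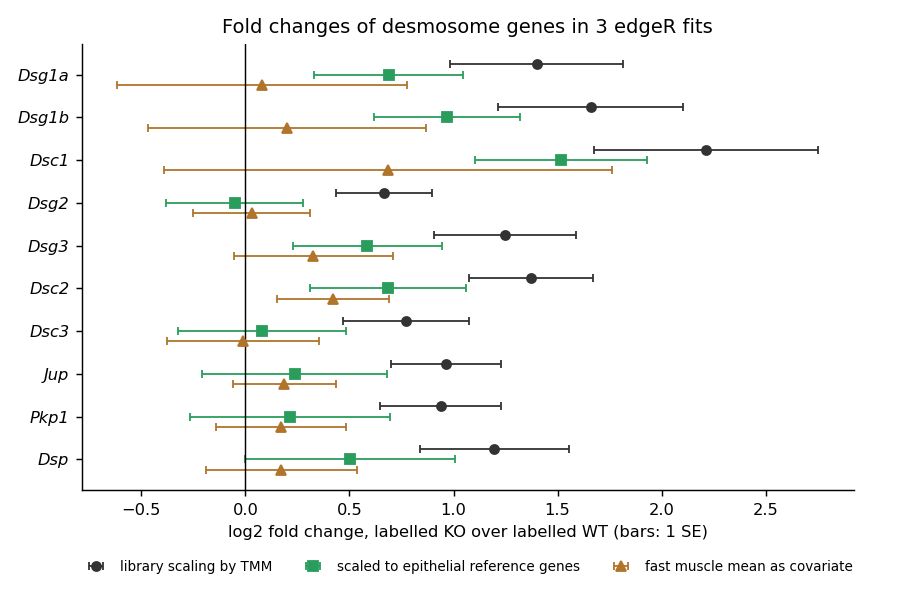
log2 fold change of labelled KO over labelled WT, with 1 standard error, for each desmosome gene in 3 edgeR fits: TMM scaling (circles), scaling to 8 epithelial reference genes (squares) and TMM with the fast muscle mean as a covariate (triangles). The circles lie between 0.67 and 2.21, the squares between -0.05 and 1.52 and the triangles between -0.01 and 0.69.

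Of 9 genes of desmosome accessory proteins tested 3 rose and 0 fell with TMM scaling, against 4.81 and 7.43% of all genes. Their median log2 difference was 0.83, with 8 of the 9 above 0, as were 51.3% of all genes. With epithelial scaling edgeR called 0 higher and 1 (Pkp2) lower, where it called 1.03% of all genes higher and 46.8% lower. The list's median was then 0.06, beside -0.80 over all genes, and 5 of 9 lay above 0. Values that follow are with TMM scaling. Corneodesmosin, Cdsn, which joins desmosomes in cornifying cells, rose from 69.4 ± 16.2 to 200 ± 58.5 CPM (1.53 ± 0.26, edgeR adjusted p = 0.0312). Plakophilin 3, Pkp3, rose from 208 ± 63.9 to 417 ± 24.1 CPM (1.00 ± 0.23, edgeR adjusted p = 0.0378), and envoplakin, Evpl, a plakin of the cornified envelope, from 297 ± 58.3 to 526 ± 84.0 CPM (0.83 ± 0.20). Perp, a p63 target needed for desmosome assembly, stood at 704 ± 249.4 CPM in labelled WT and 1528 ± 254 CPM in labelled KO (1.12 ± 0.30, edgeR adjusted p = 0.0505), periplakin, Ppl, at 0.75 ± 0.24 and kazrin, Kazn, at 0.65 ± 0.18. Dsg4, the desmoglein of hair and hard keratinising cells, averaged 0.443 ± 0.202 CPM in labelled WT and 1.38 ± 0.733 CPM in labelled KO, and its libraries overlapped. Pkp4 stood at 0.40 ± 0.14. Pkp2, the plakophilin of heart and simple epithelia, was the exception in direction, with 3.90, 3.41 and 3.91 CPM in the KO libraries against 4.501, 5.84 and 8.44 CPM in the WT libraries (-0.74 ± 0.25, edgeR adjusted p = 0.0775).

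Among 11 regulators of desmosomes 4 rose and 1 fell with TMM scaling, against 4.81 and 7.43% of all genes. With epithelial scaling 0 rose and 2 fell by edgeR, among them Prkca (-1.57 ± 0.35), against 1.03% of all genes higher and 46.8% lower. The grainyhead factors Grhl1 (1.16 ± 0.23, edgeR adjusted p = 0.0334), which binds desmosomal cadherin promoters, and Grhl3 (1.09 ± 0.14, edgeR adjusted p = 0.0295) rose, as did the epidermal differentiation factors Zfp750 (0.96 ± 0.17) and Klf4 (1.01 ± 0.21). Prkca, protein kinase C alpha, whose activity loosens desmosomes, fell from 79.3 ± 13.4 to 49.2 ± 5.23 CPM (-0.69 ± 0.15, edgeR adjusted p = 0.0375, and 0.0538 with plain library totals). Trp63 (0.82 ± 0.32, edgeR adjusted p = 0.104), a factor of epidermal differentiation, did not pass. Of 10 genes of desmosome cleavage and its control 5 rose and 0 fell with TMM scaling (median 0.79), against 4.81 and 7.43% of all genes. With epithelial scaling 4 rose (Klk6, Klk14, Mmp9 and Spink5) and 1 fell, against 1.03 and 46.8% of all genes. The median was then 0.02, beside -0.80 over all genes. With TMM they were the kallikreins Klk14 (71.6 ± 15.6 to 221 ± 45.3 CPM), Klk7 (23.2 ± 4.58 to 45.3 ± 8.72 CPM) and Klk6 (0.924 ± 0.763 to 9.61 ± 0.758 CPM), their inhibitor Spink5 (140.0 ± 69.1 to 712 ± 515 CPM) and the inactive rhomboid Rhbdf2 (0.61 ± 0.14). The protease gene Mmp9 stood at 2.06 ± 0.62 (edgeR adjusted p = 0.0599), and the sheddase gene Adam10 at 0.42 ± 0.20.

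For comparison with the neighbouring junction, 1 of 10 adherens junction genes rose and 0 fell with TMM scaling, against 4.81 and 7.43% of all genes. The median was 0.52, and 7 rose at an unadjusted p under 0.05, as did 18.2% of all genes. With epithelial scaling, whose reference holds Cdh1, 0 rose and 0 fell by edgeR, against 1.03 and 46.8% of all genes. The median was then -0.25, beside -0.80 over all genes. The 1 gene called with TMM was nectin 4, listed as Pvrl4 (0.96 ± 0.20, edgeR adjusted p = 0.0356). E-cadherin, Cdh1, stood at 0.81 ± 0.26 (edgeR adjusted p = 0.0671), and vinculin, Vcl, at 0.48 ± 0.15 (edgeR adjusted p = 0.0670). Of 13 keratins that desmosomes anchor 1 rose and 0 fell with TMM scaling (median 1.42), against 4.81 and 7.43% of all genes. With epithelial scaling, whose reference holds Krt5 and Krt14, 3 rose (Krt10, Krt6b and Krt16) and 0 fell, against 1.03 and 46.8% of all genes. The median was then 0.76, beside -0.80 over all genes. With TMM the 1 was Krt10, the keratin of suprabasal epidermis, from 40.5 ± 20.6 to 207 ± 106 CPM (2.35 ± 0.52, edgeR adjusted p = 0.0375, and 0.050002 with plain library totals). Krt14, a basal keratin, stood at 1.23 ± 0.38 (edgeR adjusted p = 0.0651), and Krt16, a keratin of stressed epithelium, at 1.93 ± 0.64 (edgeR adjusted p = 0.0737). No difference between these lists and the desmosome genes was tested.

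In the authors' deposited table of all 6 libraries the log2 fold changes of WT over KO ran from -1.32 (Dsg1b) to -0.60 (Dsg2), and all 10 desmosome genes had an adjusted p under 0.05, as had 12.4% of genes in that direction. Dsc1 stood there at -1.30 ± 0.41 SE, against 2.20 ± 0.68 SE for KO over WT in the DESeq2 fit made here of the same counts. Fold sizes are therefore not comparable between the deposited values and the fits made here, and the reason was not tested. In the authors' deposited table of KO replicates 1 and 2 against WT replicates 1 and 3, 7 of the 10 did, against 3.61% of genes, with Dsg2 (0.236), Dsg3 (0.0522) and Dsc3 (0.157) missing. In the authors' deposited table of KO replicates 1 and 2 against WT replicates 2 and 3 all 10 did, against 16.3% of genes. Dsc1 was the largest of the 10 in the first of these 4-library tables, at -2.32, and Dsc2 in the second, at -1.79. The 3 tables share libraries and leave KO replicate 3 out of both small ones, so they are no independent repeats of each other.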

How the data were processed

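The 6 RNA-seq libraries of tongue tissue with tumour were made with an Illumina TruSeq RNA kit from total RNA, per the labels' protocols. The sample titles gave the group and replicate, and columns were matched through the sample identifiers. The authors deposited 3 tables with raw counts per gene, not normalised, beside columns of their own comparison: per the file headers, a mean normalised signal over libraries, log2 fold changes, a test score and p-values. The shared counts were identical in all 3 tables. HTSeq, DESeq2, hg19 and mm10 are named in the submitters' processing notes, with no role. No aligner, annotation or strandedness is named there, so reads of near-identical or overlapping genes are uncertain.

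Counts were fitted with edgeR 4.0.16 in R 4.3.3: filterByExpr (at least 10 scaled counts in the smaller group and 15 in all), TMM, and a robust quasi-likelihood model with group as its only term. P-values were adjusted by Benjamini-Hochberg over 15903 genes, with a threshold of 0.05. The steps were tested on simulated data. Standard errors are the fold change over the square root of F, and intervals are at 95%. Single ratios used exact permutation tests. DESeq2 1.42.0 and limma 3.58.1 were alternatives. The members, gene lists and tests were chosen with earlier results of these data known. All 10 members were named, with listed genes past the threshold, the next 2 by adjusted p in each list, and accessory genes. The result for 1 regulator gene is not reported here. Krt6b was named after its values were seen. At 29543352 to 51520707 counts a library, the scarcest member, Dsg2, had 271 to 1086 counts. Transcript lengths are from GENCODE M21, coordinates from RefSeq GRCm38.p6.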

Additional observations from a re-analysis of the deposited data

How the results depend on the processing

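Over all pairs of a desmosome gene and an alternative, 104 kept direction and side of the threshold, 24 passed newly, 30 no longer passed and 2 changed sign. A pair that failed in both fits counts as kept whatever its fold size. With the muscle mean as a covariate 6 pairs were kept in this sense, while the median log2 fold change of the members went from 1.22 to 0.18. The sign changed for Dsg2 with epithelial scaling (-0.052) and for Dsc3 with the fast muscle mean as a covariate (-0.0097). The count of members higher in the libraries labelled KO, 3 in the reported fit, was 1 with total counts, 10 with DESeq2, 5 with limma-voom, and 0 with the muscle mean, the basal mean or sex as a covariate (0, 0 and 8 at an unadjusted p under 0.05 by edgeR). Leaving out 1 library gave 0 to 7. Over all genes the counts higher and lower, 765 and 1181, were 406 and 468 with total counts, 164 and 7445 with epithelial scaling and 1909 and 2472 with DESeq2. They were 0 and 0 by edgeR with each covariate (unadjusted, 233 and 247 with muscle, 401 and 420 with basal, 1672 and 1860 with sex). Leaving out 1 library gave 0 to 2906 higher and 0 to 2938 lower. Total counts moved the median of all genes to 0.18, and relative to it the members' median was 1.17.

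A replicate block raised the counts to 1705 higher and 2112 lower genes (10.7% of genes higher) and to all 10 members. The replicate numbers share no stated litter, day or batch, and deviations of same-numbered libraries correlated at 0.12, -0.16 and 0.19, so no pairing is assumed. The causes of these changes were not tested.

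Of the isoform ratios only Dsg1a to Dsg3, which was near 0, changed sign: leaving out 1 library gave -0.26 to 0.39, and summing Dsg1a with Dsg1b, chosen after seeing the data, gave 0.12. The other 5 kept their direction in each alternative run. At low depth Dsg1c, with at most 6 counts, could not be assessed.

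The scalings were extended to the companion lists after seeing the data. With total counts edgeR called 1 accessory, 4 regulator, 3 cleavage, 1 adherens junction and 0 keratin genes higher and 0 of any of these lists lower. Of all 15903 genes it called 406 higher and 468 lower. Krt10 (edgeR adjusted p = 0.050002) and Prkca (edgeR adjusted p = 0.0538) thus lost their calls.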

Other observations

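The 5 genes outside the lists whose centred log2 levels lay closest to those of Dsp over the 6 libraries, among 10199 genes with a mean of at least 10 CPM, were Map3k9, Twf1, Cyp4f39, Camk1d and Tifa. Their root mean square differences from Dsp were 0.0888, 0.0922, 0.0930, 0.0930 and 0.0997 on the log2 scale. Map3k9, a mixed-lineage kinase, averaged 59.0 ± 13.4 CPM with the KO label against 27.8 ± 10.3 CPM with the WT label (SD, n = 3). Twf1, an actin monomer-binding protein, averaged 119 ± 17.8 and 53.0 ± 19.6 CPM. Each of the 5 was nearer to Dsp than any other desmosome gene was, of which Dsg3 (0.169) and Dsc2 (0.181) came closest and Dsc1 (0.653) was farthest. The 5 were picked as the nearest of 10199 genes and the desmosome genes were not, so that order follows largely from the choice. Because the likeness is over 6 libraries that fall into 2 groups, it is a description only.

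Markers of other cells in the same tongues moved in both directions with TMM scaling. Over all genes edgeR called 4.81% upwards and 7.43% downwards, and 18.2% rose at an unadjusted p under 0.05. Of 5 endothelial genes 0 rose and 3 fell (median log2 fold change -0.69), of 7 fibroblast genes 0 rose and 2 fell (-0.55) and of 16 fast muscle genes 0 rose and 5 fell (-0.97). Of 13 suprabasal keratinocyte genes 6 rose and 0 fell (1.14). Of 10 basal keratinocyte, 8 filiform papilla, 5 T cell and 4 myeloid genes edgeR called 0 in either direction (unadjusted p under 0.05: 5, 3, 3 and 0 upwards, 0 downwards, and no other tool was counted), with medians of 0.68, 1.23, 1.15 and -0.05. Their part in the desmosome differences was not tested.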
